A study of Homo sapiens with 2 samples.

Results

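The genes described here encode the laminins and other non-collagen proteins of the extracellular matrix, among them fibronectin, thrombospondins, fibrillins, fibulins and matrix proteoglycans. They were chosen by name, from a list made with earlier results of these data known. A probe set belonged to the group when its array annotation gave exactly 1 gene symbol and that symbol was 1 of 38 listed genes. Such probe sets, 97 in all, covered 37 of the 38 genes, out of 19775 genes covered on the array, and LAMA3 was not analysed here. The laminin chains, linkers and adhesive proteins are known components of the scaffold on which epithelial and tumour cells sit.

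The study held 2 expression arrays, 1 of PLC8024 cells lacking CD133 and transduced with a lentivirus for miR-130b, and 1 of PLC8024 cells lacking CD133 and transduced with the empty vector. PLC8024 is a human hepatocellular carcinoma (HCC) line, and CD133 is a surface protein used to sort tumour-initiating liver cancer cells. Both cultures came from the fraction without CD133, taken by flow cytometric sorting, and the labels name neither the promoter of the vector nor the number of cultures or clones behind each array. For miR-130b, the source label speaks of transfection and the protocol of lentivirus. With 1 array per condition there was no replicate error and no test, and each difference below separates these 2 arrays only.

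Laminins are trimers of 1 alpha, 1 beta and 1 gamma chain that polymerise into the sheet of the basement membrane. Nidogens and perlecan tie that sheet to collagen IV, while fibrillin microfibrils, fibulins and elastin build extensible fibres in the interstitial matrix. Thrombospondins, osteopontin and TGFBI are matricellular proteins, which signal to cells through integrins and other receptors more than they bear load. A microRNA such as miR-130b pairs through its seed with target transcripts and lowers their level. The mature miR-130b-3p is shown because it is the agent that distinguishes the cultures, with its seed (bases 2 to 8) in capitals. RefSeq places it on GRCh38.p14 at chr22:21653354-21653375, plus strand.
hsa-miR-130b-3p: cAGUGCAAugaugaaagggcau

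Values are log2 expression values made by RMA, and a difference is miR-130b minus empty vector on that scale. The median of all values, 4.88, served as a floor, and genes that reached it on at least 1 array are called measured. Where several probe sets of a gene reached it, the one with the highest mean stood for the gene. Of the 37 genes, 26 were measured and 11 were not. The labelled cell type was checked against its markers, and all 11 hepatocyte and liver tumour markers that have a probe set were at or above the floor in miR-130b cells and likewise in empty vector cells. The linear signals of these markers summed to 74000 in miR-130b cells and 80000 in empty vector cells, sums that the strongest signals dominate. Of these 11 markers, 2 were lower by 2-fold or more: TTR differed by -3.34 and ALB by -1.03, with -2.38 and -1.56 in its other measured probe sets. Among all measured genes, 1.52% were lower by 2-fold or more. The other 9 markers differed by less than 1.5-fold. Of the 11, 5 were higher in miR-130b cells by any amount, and the median difference was -0.11.

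Of the 26 measured matrix genes, 8 were lower by 1.5-fold or more in miR-130b cells and 0 were higher by 1.5-fold or more. Among all 13260 measured genes, 2.68% were lower by 1.5-fold or more and 0.294% were higher by 1.5-fold or more. The 8 genes were SPP1, THBS1, MATN2, FBN1, MFAP2, TGFBI, FBLN5 and THBS4. At 2-fold, 5 matrix genes were lower and 0 higher, where 1.52% and 0% of all measured genes were. The median difference was -0.20 over the matrix genes, against 0.03 over all measured genes. In all, 21 of the 26 were below 0 by any amount, as were 5556 of all 13260 measured genes. Without the 8 genes the median of the other 18 was -0.06. By role, 4 of the 8 were adhesive or matricellular, 3 belonged to microfibrils or elastic fibres and 1 was a matrilin, while 0 were laminin chains or basement membrane linkers.

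**Figure D1:**
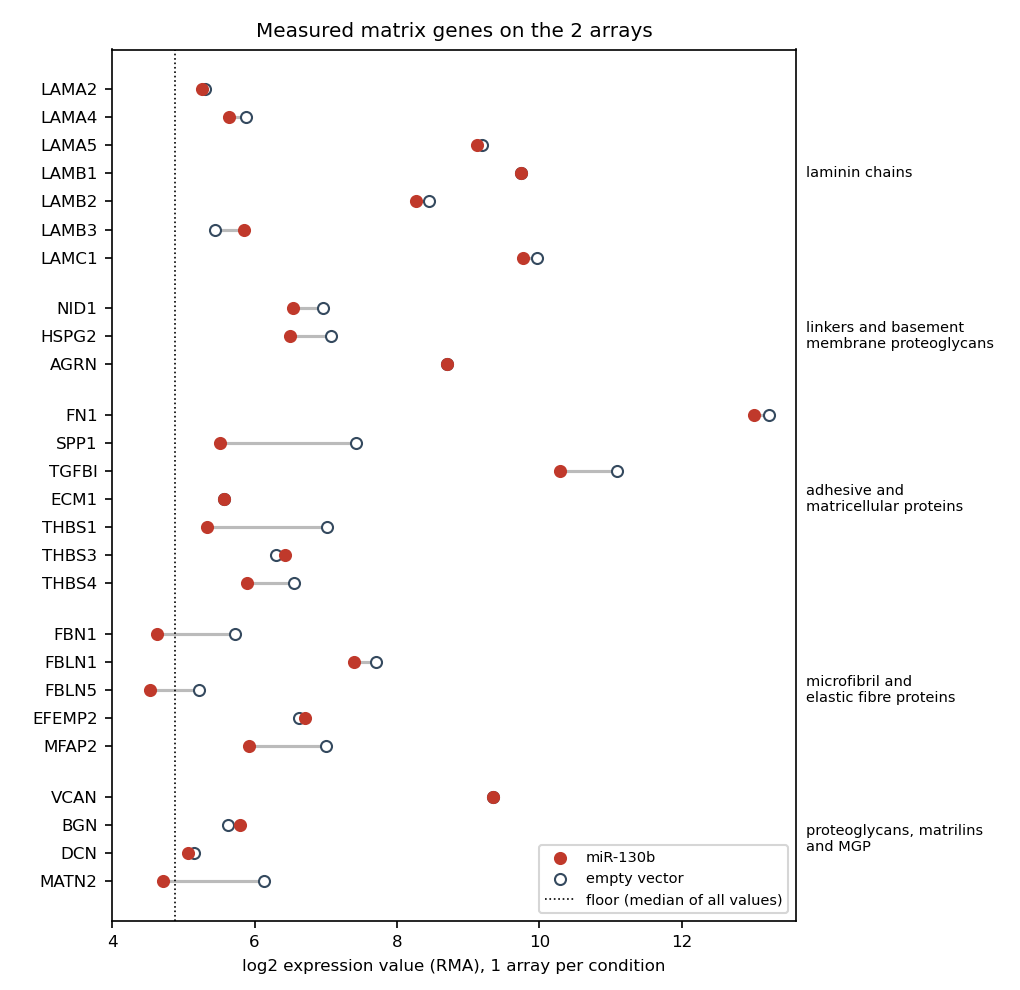
Log2 expression value (x axis) of the 26 measured matrix genes on the miR-130b array (filled red) and the empty vector array (open), 1 array per condition, with genes grouped by role and the floor of 4.88 as a dotted line. SPP1, THBS1, MATN2, FBN1 and MFAP2 have the widest gaps, and the laminin chains have narrow ones.

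The laminin chains did not pass 1.5-fold in either direction. LAMB1, a beta chain of many laminins, stood at 9.74 in miR-130b cells and 9.74 in empty vector cells. LAMC1, the gamma chain shared by most laminins, stood at 9.77 in miR-130b cells and 9.97 in empty vector cells, a difference of -0.20 that its other measured probe set also gave. LAMA5, the alpha chain of the laminins of adult epithelium, was at 9.12 in miR-130b cells and 9.20 in empty vector cells. These 3 chains can form 1 trimer, and the widest of their differences was the -0.20 of LAMC1.

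LAMB2, the beta chain that takes the place of LAMB1 in some basement membranes, was at 8.26 in miR-130b cells and 8.46 in empty vector cells. LAMA4, an alpha chain best known from vessels and fat, was at 5.65 in miR-130b cells and 5.88 in empty vector cells. LAMA2, the alpha chain of muscle and nerve, was at 5.26 in miR-130b cells and 5.31 in empty vector cells. All 3 were lower in miR-130b cells by less than 1.5-fold.

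LAMB3, a chain of the epidermal laminin that anchors hemidesmosomes, was the only laminin chain of the 7 measured that was higher in miR-130b cells. It stood at 5.85 in miR-130b cells and 5.45 in empty vector cells, a difference of 0.39 from 1 probe set, and 97.6% of all measured genes had a difference as low or lower. LAMA1, the alpha chain of early embryonic laminin, was below the floor in both arrays in each of its probe sets, with differences of 0.13 and 0.29. Over the 7 measured chains the median difference was -0.08.

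The basement membrane linkers lay nearer the limit. Their values, and those of every other gene of the 38 below that did not pass 1.5-fold, were chosen for print after they were seen. HSPG2, which encodes perlecan, a heparan sulfate proteoglycan, was at 6.50 in miR-130b cells and 7.07 in empty vector cells, or 1.49-fold lower, just under 1.5-fold. The gene just past that limit was THBS4, at 1.58-fold. NID1, which encodes nidogen-1, was at 6.54 in miR-130b cells and 6.96 in empty vector cells, with a difference of -0.41 in that probe set and -0.74 in a dimmer one. AGRN, which encodes agrin, a heparan sulfate proteoglycan known from the neuromuscular junction, was at 8.71 in miR-130b cells and 8.70 in empty vector cells, and its 4 measured probe sets ran from -0.05 to 0.19. NID2, the second nidogen, was below the floor in both arrays.

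Of 7 measured adhesive and matricellular genes, 4 were lower by 1.5-fold or more: SPP1, THBS1, TGFBI and THBS4. SPP1, which encodes osteopontin, a secreted integrin ligand made by biliary and many tumour cells, was at 5.52 in miR-130b cells and 7.43 in empty vector cells. It was 3.76-fold lower, and 0.543% of all measured genes had a difference as low or lower. The call rests on 1 probe set, since its other one was below the floor in both arrays, with 3.39 in miR-130b cells and 3.22 in empty vector cells.

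THBS1, which encodes thrombospondin-1, an inhibitor of vessel growth and an activator of latent TGF-beta, had 3 measured probe sets, all lower in miR-130b cells. The one with the highest mean stood at 5.33 in miR-130b cells and 7.02 in empty vector cells. The next stood at 4.01 in miR-130b cells and 6.72 in empty vector cells. The third stood at 3.45 in miR-130b cells and 5.72 in empty vector cells. The differences were -1.69, -2.72 and -2.27, with a mean of -2.23, and the first, which represents the gene, was 3.24-fold lower. The other two reached the floor only in empty vector cells, so the size of their differences, and of the mean, is uncertain. Of 4 dimmer probe sets that reached the floor on neither array, 3 were lower, by -0.49 to -0.85, and 1 was higher by 0.11.

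TGFBI, which encodes a TGF-beta-induced protein that binds integrins and collagen, was 1.74-fold lower, at 10.29 in miR-130b cells and 11.09 in empty vector cells. Both values lay far above the floor, and the gene has 1 probe set. THBS4, a pentameric thrombospondin known from tendon and muscle, was at 5.90 in miR-130b cells and 6.55 in empty vector cells. THBS3, another pentameric thrombospondin, was at 6.43 in miR-130b cells and 6.30 in empty vector cells. The 3 measured thrombospondin genes therefore had differences of -1.69, -0.66 and 0.13, and THBS2 was below the floor in both arrays.

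FN1, which encodes fibronectin, the main adhesive glycoprotein of provisional matrix and a plasma protein made by hepatocytes, was at 13.02 in miR-130b cells and 13.22 in empty vector cells. Its 6 measured probe sets were all lower in miR-130b cells, from -0.55 to -0.19, and none passed 1.5-fold. The 4 with values near 13 in both arrays ran from -0.29 to -0.19, and the larger differences came from the 2 dimmer ones. ECM1, a secreted protein that binds perlecan and fibulin-1, was at 5.57 in miR-130b cells and 5.58 in empty vector cells. TNC and POSTN, the matricellular proteins tenascin-C and periostin, were below the floor in both arrays, with differences of -0.23 to 0.07 for TNC and -0.12 to 0.17 for POSTN.

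**Figure D2:**
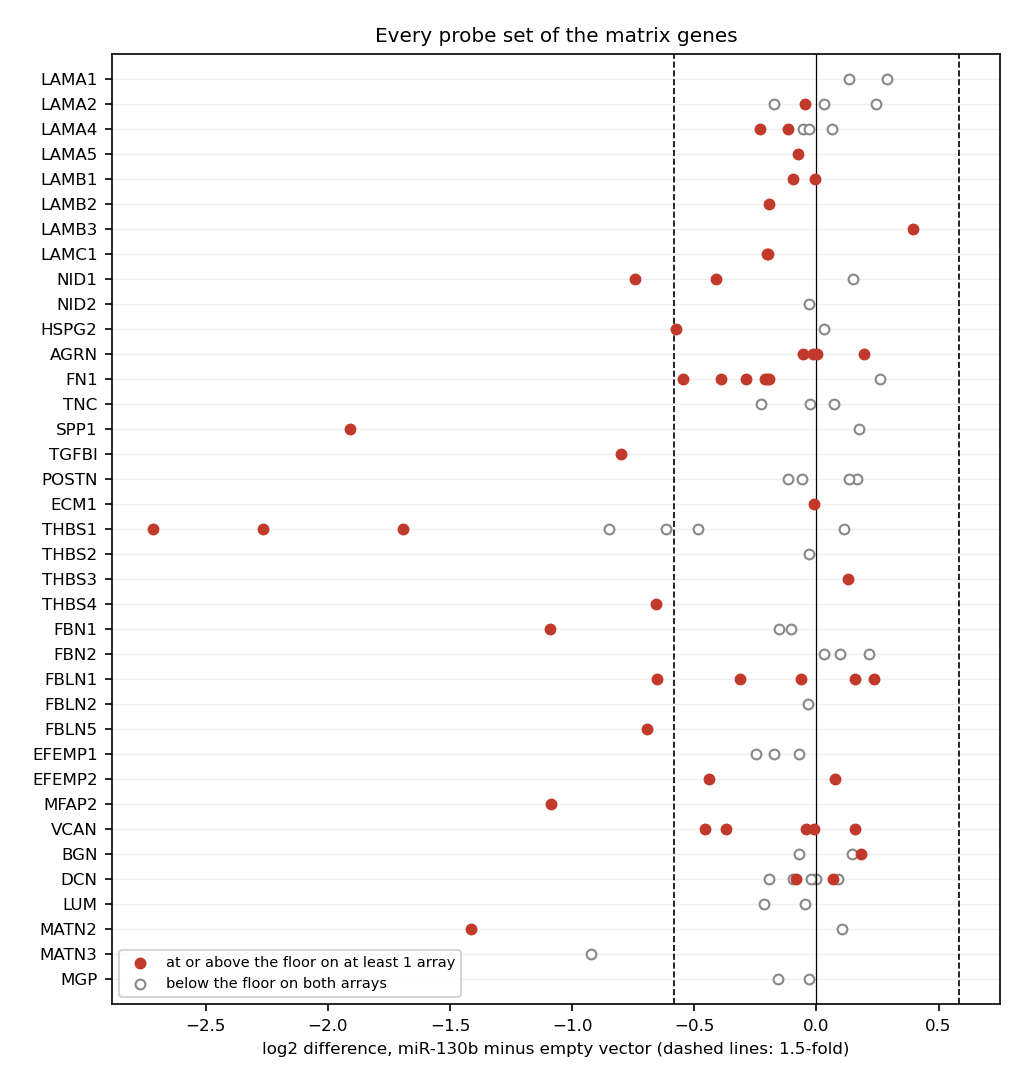
Log2 difference, miR-130b minus empty vector (x axis), of all 97 probe sets of the 37 matrix genes, filled when at or above the floor on at least 1 array and open when below it on both, with dashed lines at 1.5-fold. THBS1 has 3 filled points between -2.72 and -1.69, the 6 filled points of FN1 lie between -0.55 and -0.19, and no point lies beyond 1.5-fold to the right.

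Among microfibril and elastic fibre genes, 3 of 5 measured were lower by 1.5-fold or more. FBN1, which encodes fibrillin-1, the backbone of microfibrils, was at 4.63 in miR-130b cells and 5.72 in empty vector cells. It was 2.13-fold lower, and its value in miR-130b cells was below the floor. Its 2 other probe sets reached the floor on neither array and differed by -0.15 and -0.10. MFAP2, which encodes a small glycoprotein bound to fibrillin microfibrils, was also 2.13-fold lower, at 5.92 in miR-130b cells and 7.01 in empty vector cells, from its only probe set.

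FBLN5, which encodes fibulin-5, a protein needed for elastic fibre assembly, was at 4.53 in miR-130b cells and 5.22 in empty vector cells, or 1.62-fold lower. Its value in miR-130b cells was below the floor. EFEMP2, also called fibulin-4, another elastic fibre assembly protein, was at 6.71 in miR-130b cells and 6.63 in empty vector cells. Its other measured probe set differed by -0.44, so its probe sets disagreed in sign.

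FBLN1, which encodes fibulin-1, a basement membrane and plasma protein that binds fibronectin, was at 7.40 in miR-130b cells and 7.71 in empty vector cells. Its 5 measured probe sets ran from -0.65 to 0.23, with 3 lower and 2 higher. FBN2, FBLN2 and EFEMP1, which encode fibrillin-2, fibulin-2 and fibulin-3, were below the floor in both arrays, with differences between -0.25 and 0.22.

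Among proteoglycans, matrilins and MGP, MATN2 was the only measured gene of 4 past 1.5-fold. MATN2, which encodes matrilin-2, an adaptor protein of filamentous matrix networks, was 2.67-fold lower, at 4.71 in miR-130b cells and 6.13 in empty vector cells. The value in miR-130b cells was below the floor, and its other probe set, below the floor in both arrays, differed by 0.11. VCAN, which encodes versican, a large chondroitin sulfate proteoglycan, was at 9.34 in miR-130b cells and 9.35 in empty vector cells. Of its 5 measured probe sets, 4 were lower, and they ran from -0.46 to 0.16.

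BGN, which encodes the small leucine-rich proteoglycan biglycan, was at 5.80 in miR-130b cells and 5.62 in empty vector cells. DCN, which encodes the related decorin, was at 5.07 in miR-130b cells and 5.15 in empty vector cells, and its 2 measured probe sets differed in sign. LUM (lumican), MATN3 (matrilin-3) and MGP (an inhibitor of calcification) were below the floor in both arrays. MATN3 stood apart from the other genes below the floor, at 2.86 in miR-130b cells and 3.79 in empty vector cells, where no call was made. Decorin and lumican are made by fibroblasts above all.

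Of the 50 measured probe sets of these genes, 12 were lower by 1.5-fold or more and 0 higher, against 2.83% lower and 0.33% higher among all 23352 measured probe sets with 1 symbol. At 2-fold, 7 of the 50 were lower and 0 higher, where 1.43% and 0% of all measured probe sets were. The 7 were 1 each of SPP1, MFAP2, FBN1 and MATN2 and the 3 measured ones of THBS1, so they are not 7 separate genes. Those of FBN1 and MATN2, and all but the brightest of THBS1, reached the floor only in empty vector cells. The other 47 probe sets, which reached the floor on neither array, had a median difference of -0.03. Genes with several measured probe sets numbered 11. In 6 of them all probe sets were lower in miR-130b cells, and in 5 they disagreed in sign. Between probe sets of 1 gene, the difference spread with a pooled SD of 0.26 over the 11 genes, against 0.20 over 6047 genes. Probe sets of a gene can match different transcripts, so this spread may hold differences between transcripts besides technical error, which was not tested, and it is not an error between cultures.

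The count of 8 depended on which probe sets were kept. Of the 8 genes, 7 rested on 1 measured probe set, and 4 were represented by a probe set with the suffix _s_at, which may match several transcripts. With _x_at and _s_at probe sets left out, 4 of 13 genes were lower by 1.5-fold or more (FBLN5, MFAP2, TGFBI and THBS4). Among all 10175 genes measured in that setting, 2.58% were. With the floor at the 75th percentile of all values, 4 of 13 were lower by 1.5-fold or more (MFAP2, SPP1, TGFBI and THBS1). Among all 8277 genes measured in that setting, 2.32% were. In 3 of the 8, FBN1, FBLN5 and MATN2, the miR-130b value lay below the floor, so the size of their differences is uncertain.

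**Figure D3:**
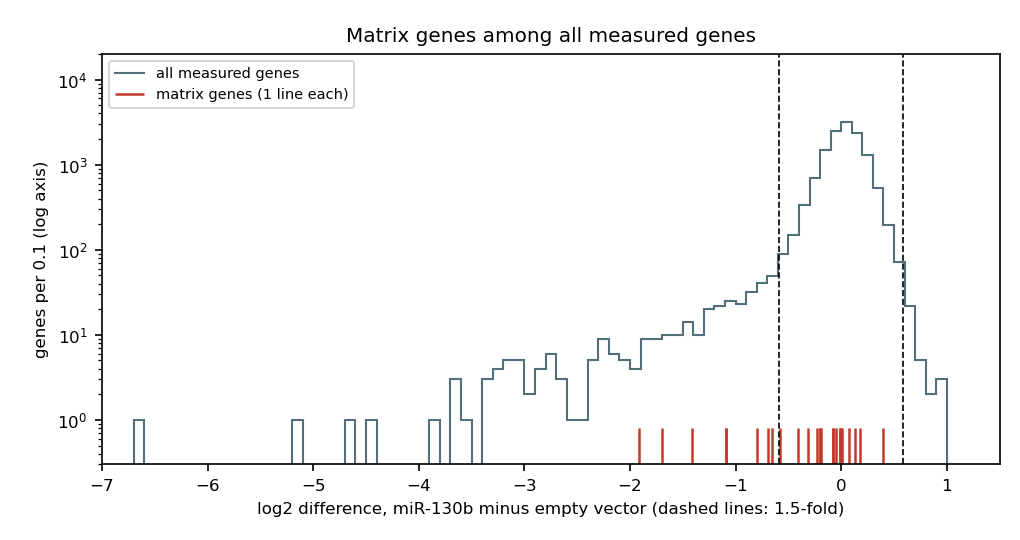
Number of genes (y axis, log scale) by log2 difference, miR-130b minus empty vector, in steps of 0.1 for all 13260 measured genes, with a red line for each of the 26 matrix genes and dashed lines at 1.5-fold. The matrix genes run from -1.91 to 0.39, while all genes run from -6.63 to 0.95.

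The matrix genes were also read by the strength of their signal, since RMA compresses the fold of dim probe sets. With a mean signal over 8, 1 of 8 matrix genes (TGFBI) was lower by 1.5-fold or more, beside 73 of 5633 among all genes. With a mean signal of 6 to 8, 4 of 9 were, beside 142 of 4526 among all genes. With a mean up to 6, 3 of 9 were, beside 141 of 3101 among all genes. These 3, FBN1, MATN2 and FBLN5, reached the floor only in empty vector cells, so the size of their differences is uncertain. In each of these bands the median difference of the matrix genes was below that of all genes, with -0.13 against 0.04 over 8, -0.58 against 0.03 between 6 and 8, and -0.08 against 0.02 up to 6.

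Receptors and other matrix genes were counted from lists of named genes, also chosen with earlier results of these data known. Of 18 measured matrix receptors, 3 were lower by 1.5-fold or more and 0 higher, with a median of -0.07. They were ITGAV, the integrin alpha chain that binds osteopontin and fibronectin, which was at 10.21 in miR-130b cells and 11.34 in empty vector cells, ITGA1, a collagen and laminin receptor chain, with a difference of -1.08, and ITGA2, another such chain, with -1.02. ITGA2 reached the floor only in empty vector cells, at 4.08 in miR-130b cells and 5.09 in empty vector cells. BCAM, a receptor for laminins with the alpha 5 chain, differed by -0.53, or by -0.13 when its probe sets were averaged. CD44, a receptor for hyaluronan and osteopontin, printed after its values were seen, differed by -0.47, or by -0.97 when its 4 measured probe sets, all lower, were averaged, which makes 4 receptors lower by 1.5-fold or more in that setting.

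Of 15 measured collagens, 4 were lower by 1.5-fold or more and 0 higher, with a median of -0.08. COL5A2, a chain of fibril-forming collagen V, was 8.57-fold lower and COL1A2, a chain of collagen I, was 8.46-fold lower. COL12A1, a collagen of fibril surfaces, differed by -1.89, and COL4A5, a basement membrane collagen chain, by -0.70. COL12A1 reached the floor only in empty vector cells, at 4.15 in miR-130b cells and 6.04 in empty vector cells. COL1A1, also a chain of collagen I, was printed after its values were seen. It differed by -0.08 in the probe set that stands for it. Its 4 measured probe sets disagreed, from -1.68 to 0.38, with a mean of -0.57. Those at -0.88 and -1.68 reached the floor only in empty vector cells. Of 29 measured matrix glycoproteins outside the 38 genes, 3 were lower by 1.5-fold or more and 1 was higher, with a median of -0.02. The lower ones were NPNT, an integrin ligand of basement membranes, with -1.52, SPARC, a collagen-binding matricellular protein, with -1.47, and CRIM1, with -1.30. CRIM1, a protein that binds BMPs, was on the list although it is transmembrane. NPNT, at 4.31 in miR-130b cells and 5.83 in empty vector cells, and SPARC, at 4.80 in miR-130b cells and 6.27 in empty vector cells, reached the floor only in empty vector cells, so the size of their differences is uncertain. The higher one was HMCN1, a large fibulin relative, with 0.72. As shares of the measured genes, 30.8% of the laminins and matrix glycoproteins were lower by 1.5-fold or more, with 26.7% of collagens, 16.7% of receptors and 10.3% of other matrix glycoproteins, and these shares were not tested against each other.

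**Figure D4:**
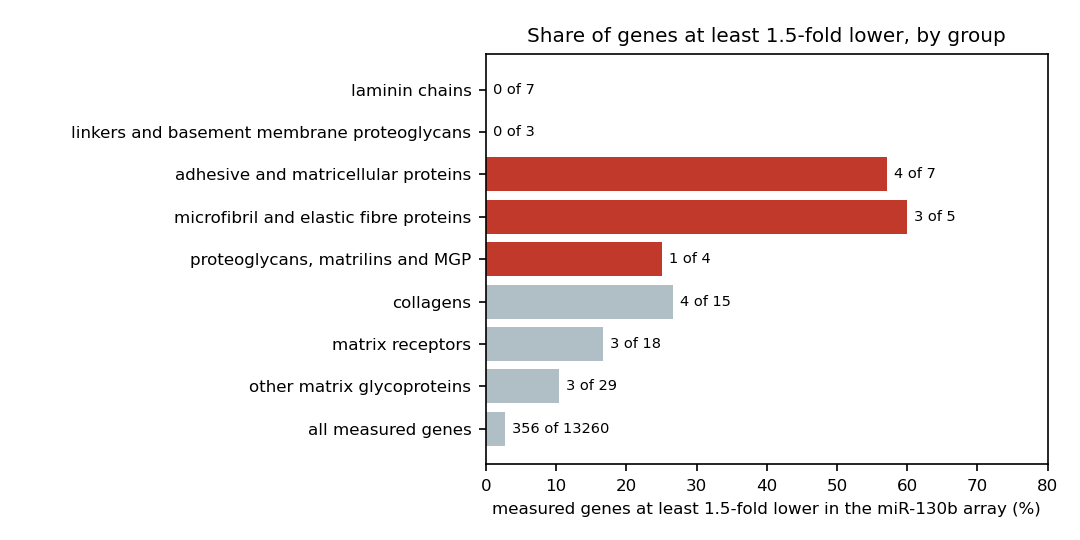
Share of measured genes lower by 1.5-fold or more in miR-130b cells (x axis, percent, from 0), for the role classes of the 38 listed genes (red) and for collagens, matrix receptors, other matrix glycoproteins and all measured genes (grey), with counts beside the bars. Laminin chains are at 0 of 7, adhesive and matricellular genes at 4 of 7 and microfibril and elastic fibre genes at 3 of 5, beside 356 of 13260 for all measured genes.

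Several matrix genes are made by stromal cells, so the markers of other cell types were read beside them. Both arrays are of cultures of 1 cell line, so a signal for such a marker need not come from another cell type. In bulk RNA, fewer cells of a type and less RNA per cell cannot be told apart. Of 10 fibroblast and stellate markers, 5 were at or above the floor in miR-130b cells and 4 in empty vector cells, and their linear signals summed to 385 in miR-130b cells and 391 in empty vector cells. COL3A1, PDGFRA, ACTA2, FAP and LRAT were below the floor in both. For 8 endothelial markers the sums were 642 in miR-130b cells and 580 in empty vector cells, with 4 at or above the floor in each and VWF, CDH5, KDR and TIE1 below it. Most of both sums came from PECAM1, at 8.72 in miR-130b cells and 8.51 in empty vector cells. For the 6 of 8 leukocyte markers that have a probe set, the sums were 836 in miR-130b cells and 1010 in empty vector cells, with PTPRC, CD14, CD3E and CSF1R below the floor. Most of both sums came from LYZ, at 9.46 in miR-130b cells and 9.77 in empty vector cells. ITGAM, the other one above the floor, was at 5.56 in miR-130b cells and 5.59 in empty vector cells. Epithelial keratins and junction genes summed to 16600 in miR-130b cells and 20200 in empty vector cells, with 5 of 7 at or above the floor in miR-130b cells and 7 of 7 in empty vector cells. Of these 7 epithelial genes, 4 were lower by 1.5-fold or more and 0 higher, with a median of -0.82. Among all measured genes, 2.68% were lower and 0.294% higher by 1.5-fold or more. KRT19 differed by -3.03, EPCAM by -1.16, KRT8 by -1.05 and CDH1 by -0.82. The others differed by less than 1.5-fold: KRT18 by -0.27, CLDN1 by -0.04 and TJP1 by 0.21. KRT19 and EPCAM reached the floor only in empty vector cells. The control probe sets that follow RNA quality also differed: the ratio of 3′ to 5′ control probe sets was 2.41 in miR-130b cells and 1.95 in empty vector cells for ACTB, and 1.52 in miR-130b cells and 1.37 in empty vector cells for GAPDH. The part of these differences in the lower matrix genes was not tested.

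The promoter windows of 4 of the 5 genes lower by 2-fold or more are shown because these genes differed in the same direction. RefSeq windows on GRCh38.p14 run from 250 bases before to 50 after a gene's start, and 31 of the 38 genes matched, with 38 windows. Capitals mark matches on either strand to any of 5 short motifs. The letters TGANTCA stand for the motif known for AP-1 factors. The letters GGAATG stand for the motif known for TEAD factors. The letters TATAAA stand for the core promoter element of that name, and GGGCGG for the element bound by SP1. The letters AGATAA stand for the motif known for GATA factors. The windows lie at chr15:39580829-39581128, plus strand, for THBS1, at chr4:87975464-87975763, plus strand, for SPP1, at chr15:48644921-48645220, minus strand, for FBN1 and at chr1:16981534-16981833, minus strand, for MFAP2, the last being 1 of 2 MFAP2 windows and the one with an AP-1 motif.
THBS1: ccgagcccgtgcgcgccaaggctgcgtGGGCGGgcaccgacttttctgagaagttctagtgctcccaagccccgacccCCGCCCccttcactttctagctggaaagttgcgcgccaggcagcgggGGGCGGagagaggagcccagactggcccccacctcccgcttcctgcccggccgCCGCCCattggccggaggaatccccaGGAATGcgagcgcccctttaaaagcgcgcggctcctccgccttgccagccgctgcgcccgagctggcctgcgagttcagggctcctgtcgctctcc
SPP1: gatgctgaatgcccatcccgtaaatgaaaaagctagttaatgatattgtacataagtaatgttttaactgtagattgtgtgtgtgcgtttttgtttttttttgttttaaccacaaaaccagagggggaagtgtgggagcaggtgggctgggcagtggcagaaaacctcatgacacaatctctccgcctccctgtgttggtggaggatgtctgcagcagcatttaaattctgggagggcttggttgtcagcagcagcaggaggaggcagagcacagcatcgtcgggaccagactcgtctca
FBN1: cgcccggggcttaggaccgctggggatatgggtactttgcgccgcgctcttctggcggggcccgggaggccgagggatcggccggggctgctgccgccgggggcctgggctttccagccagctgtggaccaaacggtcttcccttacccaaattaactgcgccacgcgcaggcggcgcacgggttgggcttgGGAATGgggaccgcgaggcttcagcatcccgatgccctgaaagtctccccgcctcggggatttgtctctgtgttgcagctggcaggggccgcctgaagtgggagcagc
MFAP2: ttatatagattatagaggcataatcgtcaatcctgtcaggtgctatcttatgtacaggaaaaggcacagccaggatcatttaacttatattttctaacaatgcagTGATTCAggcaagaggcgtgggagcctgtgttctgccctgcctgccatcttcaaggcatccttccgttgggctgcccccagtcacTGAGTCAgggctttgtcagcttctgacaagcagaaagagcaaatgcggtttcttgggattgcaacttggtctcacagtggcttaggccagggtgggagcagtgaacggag

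GGAATG stood in the THBS1 and FBN1 windows, at -46 and -58 from the start, and in 2 of 10 windows of the 7 lower genes that matched, against 1 of 19 windows of the other measured genes and 14% of all 35116 windows. TGANTCA stood in 1 of the 10, the MFAP2 window shown, which holds it 2 times, against 2 of 19 windows of the other measured genes and 7.71% of all windows. The MFAP2 window not shown held TGANTCA 0 times and GGGCGG 4 times. The SPP1 window held none of the 5 motifs. GGGCGG stood in 6 of the 10 windows, against 17 of 19 of the other measured genes and 45% of all windows. TATAAA stood in 1 of the 10, a FBLN5 window, against 1 of 19 windows of the other measured genes and 11.5% of all windows. AGATAA stood in 0 of the 10, against 1 of 19 windows of the other measured genes and 10.3% of all windows. The median GC content was 65.5% in the windows of the lower genes, against 69.7% in those of the other measured genes and 58.7% in all windows. These are counts of letters, not of bound sites, and no window was tested.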

How the data were processed

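Per the labels' protocols, total RNA was taken with Trizol and labelled with biotin. The authors deposited 1 log2 value per probe set and array for 54675 probe sets. The submitters' processing notes name RMA, with no version or settings. Median log2 values were 4.88 for miR-130b and 4.89 for the empty vector. Depth on arrays has no count, and the number of arrays limits the precision.

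Of 54613 non-control probe sets, GEO's platform annotation gave 41091 exactly 1 symbol, 1801 several and 11721 none. The Entrez identifiers of all 37 covered genes matched RefSeq's gene table under the same symbol. No build is named for the arrays, so only the sequence tables give coordinates.

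Each probe set's value in miR-130b cells minus that in empty vector cells gave its log2 difference, and genes were counted past 1.5-fold (0.58) and 2-fold as rules of size. The genes, the lists of collagens, receptors, other matrix glycoproteins and cell type markers, and the alternatives were chosen with earlier results of these data known. Values were printed for each gene past 1.5-fold, for each measured laminin chain and for up to 4 genes per list of receptors, collagens and other matrix glycoproteins. Other printed genes were chosen after their values were seen. Counting at 2-fold was tested on simulated data, with larger shifts planted in genes above the floor. That does not test the 1.5-fold rule or genes near the floor. Results were recomputed with no floor, with the 75th percentile (6.98) as the floor, with measured probe sets averaged, with omission of _x_at and _s_at probe sets, and with loess centring at a span of 0.3. Python 3.11.15, numpy 2.4.6, pandas 2.3.3, statsmodels 0.14.6 and matplotlib 3.10.9 were used.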

Additional observations from a re-analysis of the deposited data

How the results depend on the processing

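No paired analysis was possible because each condition has 1 array, and for the same reason no array could be left out. With the floor at the 75th percentile, 4 matrix genes were at least 1.5-fold lower and 3 at least 2-fold lower, of 13 measured, the collagens at least 1.5-fold lower numbered 2, and the other matrix glycoproteins numbered 1 lower and 0 higher. Without _x_at and _s_at probe sets, 4 matrix genes were at least 1.5-fold lower and 1 at least 2-fold lower, of 13 measured, with 2 collagens and 1 other matrix glycoprotein lower. These 2 settings test fewer genes, and each kept 4 of the 8 genes. Among all genes measured in them, 2.32% with the higher floor and 2.58% without those suffixes were at least 1.5-fold lower. The shares of all genes at 2-fold were not taken in these settings. Without a floor, with the mean of probe sets and with loess centring, all 8 were at least 1.5-fold lower, joined by MATN3 without a floor and by HSPG2 with loess centring. Among all genes, 1.91% were at least 1.5-fold lower without a floor, 2.6% with the mean of probe sets and 2.81% with loess centring. No matrix gene was at least 1.5-fold higher under any of the 5 settings. Among all genes, from 16 of 8277 with the higher floor to 42 of 19775 without a floor were. Receptor counts stayed within 1.5 times of the count above under all 5. Among the 15 genes followed one by one where measured, the lower 8 and the laminin chains, THBS1 with the mean of its probe sets, -2.23, was the only value to move by more than the SD of 0.20 between probe sets, and 2 of the 3 values averaged lay below the floor in miR-130b cells. The floor limits dim genes: a value below it may be mostly background, so the size of such a difference is uncertain.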

Other observations

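A probe set annotated to both LAMA5 and its antisense gene LAMA5-AS1, which the rule of 1 symbol leaves out, differed by 0.02. MATN3, with 1 probe set below the floor in both arrays, differed by -0.92, and it was printed after its value was seen.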
